A study of Mus musculus with 10 samples.

Results

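The genes described here are 32 genes of the cell cycle and of DNA replication, chosen by symbol in a hippocampal RNA-seq table of 20156 gene rows from 10 mice. All 32 were rows of the table, and 30 of them had enough counts to enter the test, which covered 16180 genes. Hippocampal mRNA was sequenced from 5 mice of the genotype labelled TfamAKO and from 5 wild type (WT) mice, all aged 6 months, with 1 library per mouse. Tfam is the gene of a mitochondrial transcription factor that also coats the mitochondrial genome. Astrocytic mitochondria are the subject of the series title, but the labels name no Cre driver, no deleted exon and no other allele, and they give neither sex nor litter. Values are CPM, the counts of a gene scaled to a common effective library size, and fold changes are TfamAKO over WT.

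A cell that divides moves through G1, copies its DNA in S phase, and passes G2 before mitosis. D-type cyclins with CDK4 and CDK6 start this course in G1, cyclins E and A with CDK2 drive S phase, and cyclin B with CDK1 drives mitosis. The MCM proteins form the helicase that opens the DNA for copying, and inhibitors such as p27 (Cdkn1b) and p57 (Cdkn1c) hold the kinases back. In the adult hippocampus most neurons no longer divide, and dividing cells are mainly progenitors of the dentate gyrus and glial cells.

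Of the 30 tested genes 15 were higher in TfamAKO hippocampus and 0 were lower (edgeR's quasi-likelihood test, Benjamini-Hochberg adjusted p under 0.05). Over all tested genes 20.8% were called higher, 16.6% lower and 37.4% in either direction. The genes that rose were the 3 D-type cyclins, cyclin A2, 3 of 4 kinases, 3 of 6 helicase subunits, Pcna, Rrm2 and 3 of 5 tested genes of mitosis. The log2 fold change was above 0 for 24 of the 30, with a median of 0.38, against 7749 of 16180 genes above 0 and a median of -0.02 over all tested genes. Every TfamAKO library lay above every WT library for 12 of the 30, against 14.5% of all genes. For 0 of the 30 did every TfamAKO library lie below every WT library, against 9.43% of all genes. The 2 genes that were too low to test were Ccnb1 and Bub1.

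A low level in WT can bias such counts, because a gene that is low in WT enters the test through its TfamAKO libraries. Of the 30, 24 reached the filter's level of 0.437 CPM in all 5 WT libraries, and 11 of these were called higher and 0 lower. The other 6 were Mki67, Top2a, Cdk1, Cdc20, Ccnb2 and Birc5, of which the first 4 were called higher. The share called among all genes that reached this level in every WT library was not computed. The counts of such genes, here and in the lists below, therefore have no matching share beside them.

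**Figure D1:**
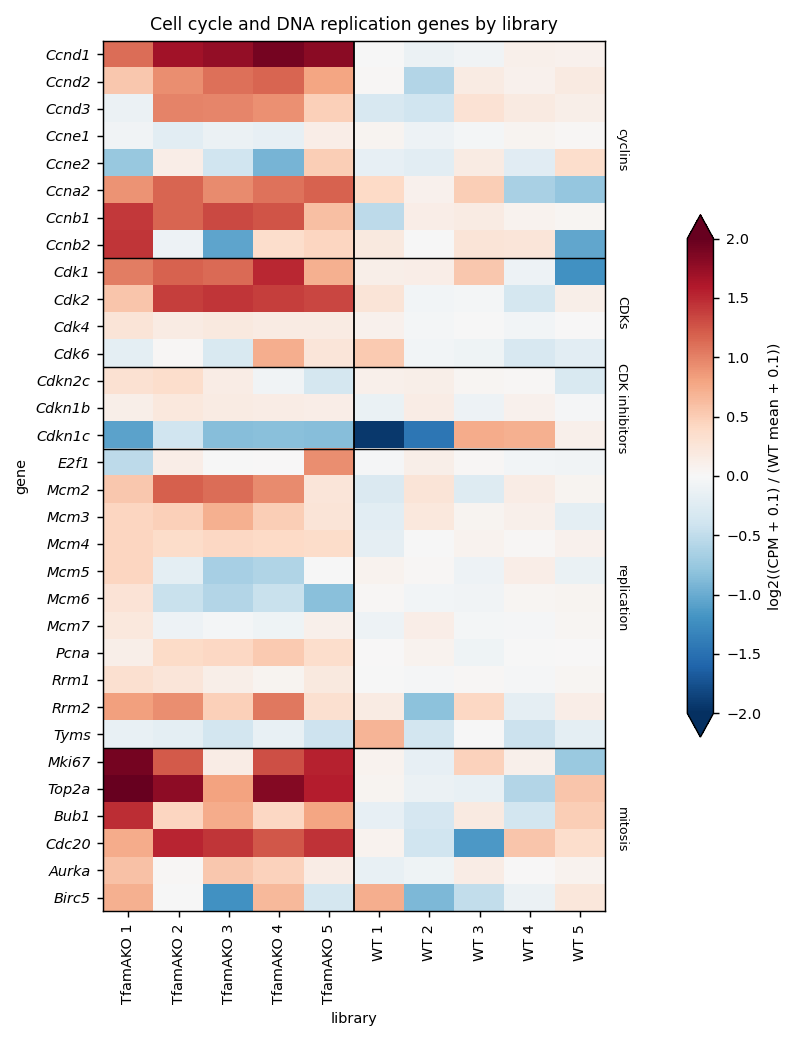
Level of each of the 32 genes (rows, in blocks by role) in each library (columns, the 5 TfamAKO libraries left of the 5 WT libraries), as the log2 ratio of CPM to the WT mean with 0.1 CPM added to both. Ccnd1, Cdk2 and Top2a are above the WT mean in all 5 TfamAKO libraries, and Cdkn1c is split within the WT libraries.

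Tfam, the gene named in the genotype, was at 23.6, 22.7, 19.6, 23.1 and 23.4 CPM in TfamAKO 1 to 5, against 31.7, 33.0, 20.6, 32.5 and 30.4 CPM in WT 1 to 5. It fell in TfamAKO, with a log2 fold change of -0.40 ± 0.12 (SE; edgeR adjusted p = 0.0204), although WT 3 lay within the range of the TfamAKO libraries. Some libraries stood apart from the rest of their group. On the first principal component, which held 53.7% of the variance, TfamAKO 1 was at 12.2, while the other TfamAKO libraries were at 37.1 to 52.7 and the WT libraries at -46.2 to -34.8. Of the Y-linked Kdm5d, TfamAKO 4 held 22.7 CPM, TfamAKO 5 held 22.4 CPM, and there was under 1 CPM in the 8 other libraries, and Xist was at 0.141 and 0 CPM in these 2 and at 200.6 to 467 CPM in the others. These 2 libraries thus differ from the other 8 in sex-linked transcripts. No WT library shows their pattern, so the difference is found in TfamAKO only, and the main fit has no term for it. Transcripts of 9 choroid plexus markers summed to 40.4 to 135 CPM in TfamAKO libraries, and to 46.3, 165, 5722, 4250 and 2839 CPM in WT 1 to 5. Without TfamAKO 4 and 5, 14 of 31 tested genes of the set were higher and 0 lower, beside 30.2% of all genes called in either direction. Of the 14, 13 were also called with all libraries. Without WT 3, 4 and 5, 8 of 31 were higher and 0 lower, beside 16.5% of all genes called in either direction. Of the 8, 7 were also called with all libraries. The 7 were Ccnd1, Ccnd2, Ccnd3, Cdk2, Mcm4, Top2a and Cdc20. That comparison has 2 WT mice. With the mean log2 CPM of the choroid plexus markers as a covariate, 10 of 30 were higher and 0 lower. Of the 10, 9 were also called without it, and 25.6% of all genes were called in either direction. The calls of Ccna2, Cdk1, Cdk4, Mcm2, Mcm3 and Rrm2 were lost in that fit (adjusted p of 0.0506 to 0.127). Total counts ran from 19558377 to 28675367 in TfamAKO and from 16584245 to 26032470 in WT libraries.

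Promoters of cell cycle genes often carry some of 3 short elements, and 3 promoters are shown to let these elements be read beside the changes below. E2F sites are bound by E2F factors at G1/S genes, and the CHR element and CCAAT boxes are known from G2 and mitosis genes. The windows are RefSeq's on GRCm38.p6, from 250 bases before to 50 bases after the gene's start, 5′ to 3′ on the gene's strand, with every match on either strand in capitals. Top2a (chr11:99024140-99024439, minus strand) is shown as the gene with the highest fold change of the set. Cdk1 (chr10:69352863-69353162, minus strand) is shown because it holds all 3 elements. Mcm3 (chr1:20820263-20820562, minus strand) is shown as a helicase subunit that holds E2F letters and was called higher.
Top2a: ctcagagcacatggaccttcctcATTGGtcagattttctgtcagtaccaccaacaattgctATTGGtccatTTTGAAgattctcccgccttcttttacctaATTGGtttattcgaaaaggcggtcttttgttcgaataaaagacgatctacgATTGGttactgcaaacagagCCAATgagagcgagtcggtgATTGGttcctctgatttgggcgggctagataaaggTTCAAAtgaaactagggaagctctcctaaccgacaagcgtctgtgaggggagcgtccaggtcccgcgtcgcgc
Cdk1: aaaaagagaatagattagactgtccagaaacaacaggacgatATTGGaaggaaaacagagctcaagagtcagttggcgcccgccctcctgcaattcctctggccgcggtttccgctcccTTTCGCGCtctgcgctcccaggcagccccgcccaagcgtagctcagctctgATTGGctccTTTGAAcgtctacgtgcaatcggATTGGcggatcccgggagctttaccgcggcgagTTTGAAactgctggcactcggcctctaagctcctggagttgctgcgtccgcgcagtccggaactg
Mcm3: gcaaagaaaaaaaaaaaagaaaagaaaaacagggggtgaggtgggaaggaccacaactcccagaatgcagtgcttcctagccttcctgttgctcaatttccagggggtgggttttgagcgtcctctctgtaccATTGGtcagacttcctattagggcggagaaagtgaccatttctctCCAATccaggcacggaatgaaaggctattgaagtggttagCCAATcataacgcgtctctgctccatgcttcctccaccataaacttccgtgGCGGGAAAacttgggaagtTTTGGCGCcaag

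The letters searched were TTTGAA for the CHR element, CCAAT for the CCAAT box, and TTTCGCGC, TTTGGCGC, TTTCCCGC and TTTGCCGC for E2F, each on both strands. RefSeq windows were matched for 26 of the 32 genes, in 29 windows, and not for Ccna2, Ccnd1, Ccnd2, Ccne2, Cdkn1c and Mcm4. E2F letters were in 6 of the 29 windows (20.7%), against 2.26% of all 32851 windows of the same length. CCAAT was in 21 of the 29 (72.4%), against 37.4% of all windows. The CHR letters were in 7 of the 29 (24.1%), against 17.9% of all windows, and lay in Aurka, Ccnb2, Cdc20, Cdk1, Mcm2, Mki67 and Top2a. Of the 11 matched genes called higher, 3 held E2F letters (Cdk1, Cdk2 and Mcm3), 10 held CCAAT and 5 held the CHR letters. Of the 15 other matched genes, 3 held E2F letters (Mcm5, Mcm6 and Mcm7), 10 held CCAAT and 2 held the CHR letters. An E2F match and a CCAAT match overlapped once, in Mcm7, and 2 E2F forms on opposite strands overlapped in Mcm5. These matches are letters only and were not tested against the changes.

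All 3 D-type cyclins, the G1 cyclins that answer to growth signals, rose in TfamAKO hippocampus. Ccnd1 (cyclin D1) was at 93.9, 139, 147, 164 and 151 CPM in TfamAKO 1 to 5, against 42.7, 39.9, 41.0, 46.4 and 45.8 CPM in WT 1 to 5. All TfamAKO libraries were above all WT libraries, and TfamAKO 1 was the lowest of its group. The gene was 3.22-fold higher, a log2 fold change of 1.69 ± 0.13 (SE; edgeR adjusted p = 2.74e-06). Ccnd2 (cyclin D2) was at 113, 149.6, 167, 176 and 135 CPM in TfamAKO 1 to 5, against 79.0, 52.0, 87.8, 82.9 and 88.8 CPM in WT 1 to 5. The groups did not overlap, with a log2 fold change of 0.92 ± 0.15 (SE; edgeR adjusted p = 0.000648), a 1.90-fold difference. On the deposited normalized values its log2 fold change was smaller, at 0.37 ± 0.11 (SE; limma adjusted p = 0.0225 with a pseudocount of 1). Ccnd3 (cyclin D3) was at 29.6, 64.0, 63.3, 60.9 and 44.9 CPM in TfamAKO 1 to 5, against 25.8, 24.3, 39.4, 36.3 and 34.8 CPM in WT 1 to 5. Its TfamAKO 1 lay within the WT range, and the 4 other TfamAKO libraries lay above it. The log2 fold change of 0.71 ± 0.21 (SE; edgeR adjusted p = 0.0180) passed the threshold, but without TfamAKO 4 and 5 the adjusted p was 0.0527, and on the deposited normalized values limma gave 0.0606 and 0.0611 at pseudocounts of 1 and 0.5. In bulk tissue a change in the number of cells of a type and a change in RNA per cell cannot be told apart.

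The D-type cyclins made up different shares of their summed level in the groups. Levels of different genes are set side by side per kilobase of the longest GENCODE M21 transcript, which need not be the transcript these cells use. On this scale Ccnd1 averaged 37.2 ± 7.15 CPM per kilobase in TfamAKO and 11.5 ± 0.770 in WT mice (SD, n = 5 each), rank 1 of the 32 genes in TfamAKO and rank 5 in WT. Pcna, rank 1 in WT, averaged 32.6 ± 3.20 CPM per kilobase in TfamAKO and 25.3 ± 1.03 in WT. Of the summed D-cyclin level per kilobase, Ccnd1 made up 50.1% ± 2.94 in TfamAKO and 36.2% ± 4.05 in WT libraries (SD, n = 5 each), with ranges of 47.9% to 55.1% in TfamAKO and 31.3% to 42.3% in WT. The share of Ccnd2 was 31.8% ± 2.32 in TfamAKO and 38.1% ± 3.25 in WT. The share of Ccnd3 was 18.1% ± 2.67 in TfamAKO and 25.7% ± 2.68 in WT, with ranges of 15.1% to 21.4% and 21.8% to 29.1%. These shares rest on the counts and not on the deposited normalized values, were computed after the values had been seen, and are given with no test.

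Markers of microglia, astrocytes and endothelium also differed between the groups. Of 8 microglia markers 7 were higher and 0 lower, and their sum was 518 to 612 CPM in TfamAKO and 305 to 365 CPM in WT libraries. Of 6 astrocyte markers 4 were higher and 0 lower, with a sum of 2637 to 4394 CPM in TfamAKO and 1128 to 1628 CPM in WT libraries. Gfap, the intermediate filament of reactive astrocytes and 1 of these markers, was at 2749, 2382, 1834, 2048 and 1452 CPM in TfamAKO 1 to 5, against 344, 530.5, 459.5, 479.8 and 423 CPM in WT 1 to 5. Of 6 endothelial markers 4 were higher and 0 lower, with a sum of 209.8 to 360.0 CPM in TfamAKO and 151 to 202 CPM in WT. The sums of these 3 lists were thus higher in every TfamAKO library than in any WT library. Of 5 mural and fibroblast markers 2 were higher and 0 lower, at 187 to 271 CPM in TfamAKO and 167 to 204 CPM in WT. Of 6 neuron markers 0 were higher and 3 lower, at 4215 to 5152 CPM in TfamAKO and 5541 to 5877 CPM in WT. None of these lists had a marker at 0 in every library. In its group TfamAKO 1 had the lowest Ccnd1 level and the highest astrocyte sum (4394 CPM), of which 2749 CPM was Gfap. This is 1 mouse, and the sum does not measure the number of astrocytes. The part of these cells in the cyclin levels was not tested.

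The cyclins of later phases did not move as one. Ccna2 (cyclin A2), which partners CDK2 in S phase and CDK1 in G2, was at 1.70, 2.05, 1.75, 1.94 and 2.08 CPM in TfamAKO 1 to 5, against 1.17, 0.923, 1.25, 0.512 and 0.461 CPM in WT 1 to 5. The groups did not overlap, and the log2 fold change of 1.17 ± 0.28 (SE; edgeR adjusted p = 0.00706) was 2.25-fold. It was 0.90 ± 0.28 without WT 3, 4 and 5 (SE; edgeR adjusted p = 0.0602). Ccnb1 (cyclin B1), the partner of CDK1 in mitosis, had 15, 13, 14, 19 and 11 counts in TfamAKO 1 to 5, against 2, 6, 5, 6 and 6 counts in WT 1 to 5. It did not pass the filter and was not tested with all libraries, although the groups did not overlap. Its mean was 0.625 ± 0.141 CPM in TfamAKO and 0.220 ± 0.0557 CPM in WT mice (SD, n = 5 each), and a fit with no filter gave a log2 fold change of 1.45 ± 0.34 (SE; edgeR adjusted p = 0.00643). Ccnb2 (cyclin B2), at 0.150 to 1.30 CPM in TfamAKO and 0.154 to 0.520 CPM in WT libraries, had a log2 fold change of 0.53 ± 0.49 (SE; edgeR adjusted p = 0.420). Its highest value was in TfamAKO 1 and its lowest in TfamAKO 3, so its groups overlapped.

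Cyclin E opens S phase with CDK2, and neither of its genes was called. Ccne1 was at 10.8, 9.84, 10.4, 10.1 and 12.5 CPM in TfamAKO 1 to 5, against 11.9, 10.6, 11.1, 11.9 and 11.5 CPM in WT 1 to 5, and the groups overlapped (log2 fold change -0.08 ± 0.09, SE; edgeR adjusted p = 0.519). Ccne2 was at 1.58 to 4.44 CPM in TfamAKO and 2.64 to 3.99 CPM in WT libraries, with a log2 fold change of -0.19 ± 0.28 (SE; edgeR adjusted p = 0.615). Its TfamAKO values spread more widely than its WT values.

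**Figure D2:**
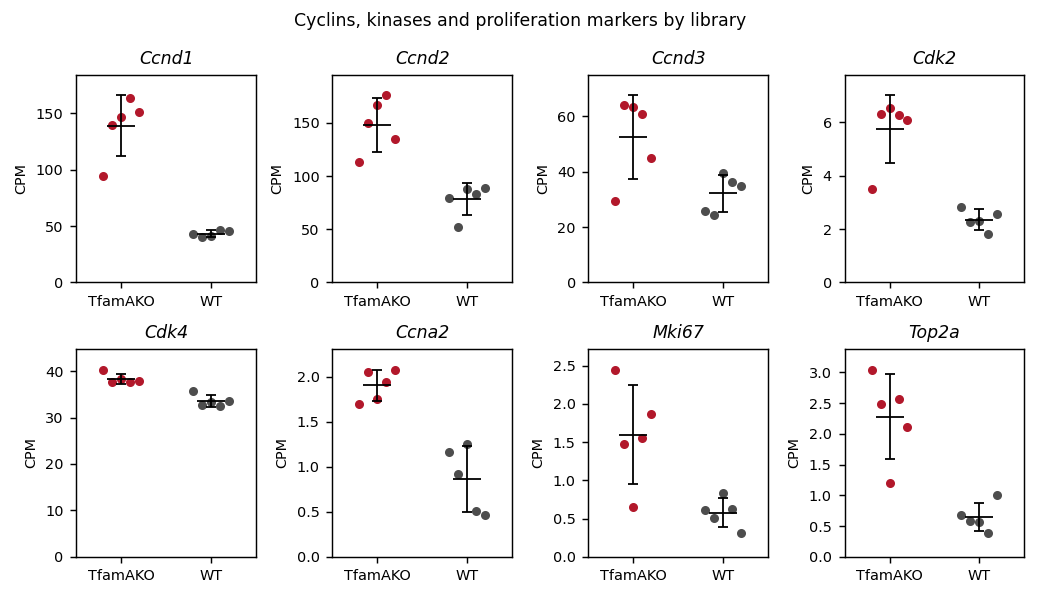
CPM of 8 genes in each library (points), with the mean (line) and SD (bars) of the 5 TfamAKO libraries (red, left) and the 5 WT libraries (grey, right); every axis starts at 0. The groups do not overlap for Ccnd1, Ccnd2, Cdk2, Cdk4, Ccna2 and Top2a, and they overlap for Ccnd3 and Mki67.

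Among the cyclin-dependent kinases, Cdk2 and Cdk1 rose by more than 2-fold and Cdk4 by a small margin. Cdk2, the S-phase kinase, was at 3.50, 6.30, 6.54, 6.27 and 6.09 CPM in TfamAKO 1 to 5, against 2.83, 2.26, 2.29, 1.81 and 2.57 CPM in WT 1 to 5. TfamAKO 1 was low in its group but above the highest WT library, and the log2 fold change of 1.29 ± 0.19 (SE; edgeR adjusted p = 0.000377) was 2.45-fold. Cdk4, a partner of the D-type cyclins, was at 40.3, 37.6, 38.3, 37.8 and 37.8 CPM in TfamAKO 1 to 5, against 35.8, 32.6, 33.4, 32.4 and 33.6 CPM in WT 1 to 5. The groups did not overlap, and the gene was 1.14-fold higher with a log2 fold change of 0.19 ± 0.06 (SE; edgeR adjusted p = 0.0167). The log2 fold change was again 0.19 without WT 3, 4 and 5, with an adjusted p of 0.165.

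Cdk1, the mitotic kinase whose promoter is printed above, had 11, 13, 12, 23 and 12 counts in TfamAKO 1 to 5, against 4, 6, 7, 5 and 1 counts in WT 1 to 5. Every TfamAKO library had more CPM than every WT library, with means of 0.600 ± 0.140 CPM in TfamAKO and 0.219 ± 0.118 CPM in WT mice (SD, n = 5 each). However, 0 of its 5 WT libraries reached the filter's level of 0.437 CPM, so Cdk1 entered the test only through TfamAKO libraries. The gene was 2.79-fold higher, with a log2 fold change of 1.48 ± 0.41 (SE; edgeR adjusted p = 0.0143). It was 1.27 ± 0.46 without WT 3, 4 and 5 (SE; edgeR adjusted p = 0.0920). On the deposited normalized values the log2 fold change was 0.70 ± 0.55 (SE; limma adjusted p = 0.342 with a pseudocount of 1). It did not pass the filter without TfamAKO 4. Cdk6, the other partner of the D-type cyclins, was at 2.20, 2.58, 2.05, 4.29 and 3.03 CPM in TfamAKO 1 to 5, against 3.69, 2.43, 2.39, 2.01 and 2.19 CPM in WT 1 to 5. Its groups overlapped and its log2 fold change of 0.17 ± 0.24 (SE; edgeR adjusted p = 0.593) was not called.

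No inhibitor of the set was called. Cdkn1b (p27), which binds and blocks CDK2 complexes, was at 57.3, 61.1, 59.5, 58.7 and 58.4 CPM in TfamAKO 1 to 5, against 48.5, 58.8, 49.3, 56.0 and 52.3 CPM in WT 1 to 5. The log2 fold change of 0.15 ± 0.06 (SE; edgeR adjusted p = 0.0710) missed the threshold. On the deposited normalized values limma gave an adjusted p of 0.0295 at both pseudocounts, and without WT 2 edgeR gave 0.0240. Cdkn2c (p18), an inhibitor of CDK4 and CDK6, was at 2.04 to 3.39 CPM in TfamAKO and 2.11 to 2.85 CPM in WT libraries, with a log2 fold change of 0.10 ± 0.18 (SE; edgeR adjusted p = 0.680).

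Cdkn1c (p57) differed more within WT than between the groups. It was at 7.54, 12.1, 8.79, 8.84 and 8.77 CPM in TfamAKO 1 to 5, against 4.12, 5.79, 26.6, 26.0 and 17.0 CPM in WT 1 to 5. WT 1 and WT 2 were below all TfamAKO libraries and WT 3, 4 and 5 above them, in the same 3 libraries that held 2839 to 5722 CPM of choroid plexus transcripts. The log2 fold change of -0.79 ± 0.43 (SE; edgeR adjusted p = 0.169) of all libraries was not called. Without WT 3, 4 and 5 the log2 fold change was 0.91 ± 0.23 (SE; edgeR adjusted p = 0.0292), in the opposite direction. With the choroid plexus score as a covariate it was 0.86 ± 0.25 (SE; edgeR adjusted p = 0.0261). Without WT 1 it was -1.03 ± 0.35 (SE; edgeR adjusted p = 0.0396). All 9 choroid plexus markers were called lower and 0 higher, and 1 of them had groups that did not overlap.

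**Figure D3:**
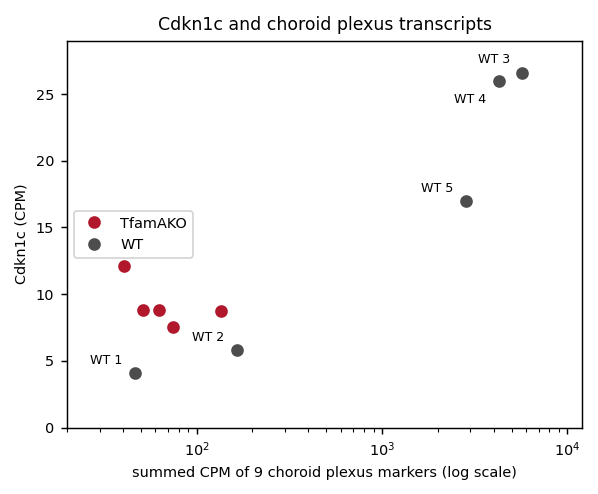
CPM of Cdkn1c (vertical axis) against the summed CPM of 9 choroid plexus markers on a log scale (horizontal axis), 1 point per library, TfamAKO red and WT grey. The TfamAKO libraries sit between 7.54 and 12.1 CPM, WT 1 and WT 2 at 4.12 and 5.79 CPM, and WT 3, 4 and 5 at 17.0 to 26.6 CPM.

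The subunits of the MCM2-7 helicase, which act as 1 hexamer, split into those that rose and those that were not called. Mcm2 was at 9.59, 15.2, 14.4, 12.7 and 7.86 CPM in TfamAKO 1 to 5, against 5.41, 7.88, 5.51, 7.33 and 6.87 CPM in WT 1 to 5. TfamAKO 5 lay just under the highest WT library and the other 4 lay above it, with a log2 fold change of 0.85 ± 0.19 (SE; edgeR adjusted p = 0.00452). Mcm3 was at 5.34, 5.54, 6.54, 5.56 and 4.72 CPM in TfamAKO 1 to 5, against 3.38, 4.57, 4.11, 4.22 and 3.42 CPM in WT 1 to 5, and its groups did not overlap, with a log2 fold change of 0.49 ± 0.14 (SE; edgeR adjusted p = 0.0169). Mcm4 was at 15.1, 14.6, 15.0, 14.9 and 14.5 CPM in TfamAKO 1 to 5, against 9.90, 11.2, 11.7, 11.4 and 11.9 CPM in WT 1 to 5. It was 1.32-fold higher, with no overlap and a log2 fold change of 0.40 ± 0.08 (SE; edgeR adjusted p = 0.00241). Without WT 3, 4 and 5 the log2 fold changes of Mcm2 and Mcm3 were 0.86 and 0.49, about as large as with all libraries, and edgeR's adjusted p were 0.0709 and 0.141. The call of Mcm3 was also lost on the deposited normalized values, at 0.42 with limma adjusted p of 0.0676 and 0.0671 at pseudocounts of 1 and 0.5.

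The other 3 subunits were not called. Mcm5 was at 5.84, 3.77, 2.70, 2.82 and 4.30 CPM in TfamAKO 1 to 5, against 4.55, 4.40, 4.0, 4.73 and 3.91 CPM in WT 1 to 5. TfamAKO 1 was above every WT library and TfamAKO 2, 3 and 4 below every one, and the log2 fold change of -0.16 ± 0.21 (SE; edgeR adjusted p = 0.577) was not called. Mcm6 was at 16.9, 10.3, 9.29, 10.2 and 7.86 CPM in TfamAKO 1 to 5, against 14.3, 13.5, 13.4, 14.4 and 14.6 CPM in WT 1 to 5. Again TfamAKO 1 was above every WT library, and the other 4 TfamAKO libraries were below every one. The log2 fold change of -0.36 ± 0.17 (SE; edgeR adjusted p = 0.116) of all libraries missed the threshold, but without TfamAKO 1 the gene was lower, at -0.58 ± 0.10 (SE; edgeR adjusted p = 0.00104), and limma-voom on all libraries gave an adjusted p of 0.0470. Mcm7 was at 11.6 to 14.5 CPM in TfamAKO and 11.6 to 13.6 CPM in WT libraries, with a log2 fold change of 0.02 ± 0.09 (SE; edgeR adjusted p = 0.863).

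The level of Mcm2 per kilobase over that of Mcm6 was 0.706, 1.84, 1.94, 1.55 and 1.25 in TfamAKO 1 to 5, against 0.471, 0.730, 0.512, 0.635 and 0.587 in WT 1 to 5. TfamAKO 1 lay within the WT range and the 4 other TfamAKO libraries above it. This ratio was chosen after the values had been seen and has no test.

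**Figure D4:**
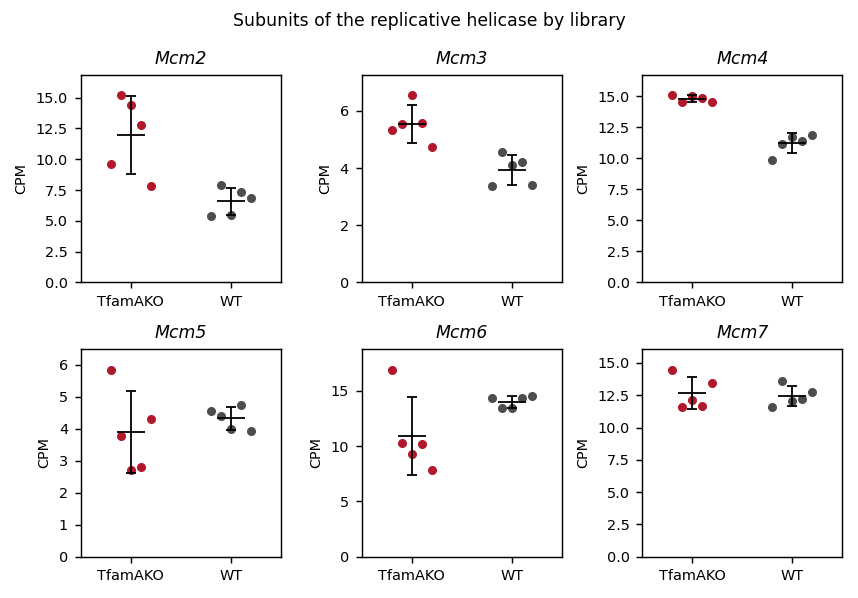
CPM of the 6 subunits of the MCM2-7 helicase in each library (points, replicates 1 to 5 from left to right), with the mean (line) and SD (bars) of TfamAKO (red, left) and WT (grey, right); every axis starts at 0. Mcm3 and Mcm4 have groups that do not overlap, while for Mcm5 and Mcm6 TfamAKO 1 is the highest library of all.

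Of the other replication genes, the sliding clamp and a nucleotide-making enzyme rose. Pcna, which encodes the clamp that holds polymerases on DNA and also serves in repair, was at 41.7, 50.2, 51.2, 55.0 and 49.1 CPM in TfamAKO 1 to 5, against 38.8, 40.5, 36.1, 38.2 and 38.4 CPM in WT 1 to 5. The groups did not overlap, and the log2 fold change of 0.37 ± 0.07 (SE; edgeR adjusted p = 0.00250) was 1.29-fold. Without WT 3, 4 and 5 the log2 fold change was 0.34 ± 0.11 and no longer called (SE; edgeR adjusted p = 0.0720). Rrm2, the S-phase subunit of ribonucleotide reductase, was at 2.30, 2.48, 1.80, 2.71 and 1.59 CPM in TfamAKO 1 to 5, against 1.41, 0.671, 1.72, 1.10 and 1.38 CPM in WT 1 to 5. TfamAKO 5 lay within the WT range. Its log2 fold change of 0.80 ± 0.26 (SE; edgeR adjusted p = 0.0299) was called, but not without TfamAKO 4 and 5 (adjusted p = 0.0604), without WT 3, 4 and 5 (log2 fold change 1.11, adjusted p = 0.0767), or without any single one of TfamAKO 2, TfamAKO 4, WT 4 and WT 5 (0.0506 to 0.0768).

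Rrm1, the other subunit of that enzyme, was at 19.6, 18.8, 17.1, 16.4 and 18.0 CPM in TfamAKO 1 to 5, against 15.6, 15.6, 16.1, 15.5 and 16.2 CPM in WT 1 to 5. All TfamAKO libraries were above all WT libraries, yet the log2 fold change of 0.19 ± 0.07 (SE; edgeR adjusted p = 0.0635) was not called, except without TfamAKO 4 (adjusted p = 0.0486). Tyms, the thymidylate synthase, was at 3.10 to 3.77 CPM in TfamAKO and 3.07 to 6.76 CPM in WT libraries, with WT 1 the highest library and a log2 fold change of -0.25 ± 0.21 (SE; edgeR adjusted p = 0.381). E2f1, a transcription factor of G1/S genes, was at 5.04, 8.02, 7.29, 7.36 and 14.0 CPM in TfamAKO 1 to 5, against 7.19, 7.93, 7.43, 7.06 and 6.95 CPM in WT 1 to 5. TfamAKO 5 was the highest library and TfamAKO 1 the lowest, and the log2 fold change of 0.20 ± 0.22 (SE; edgeR adjusted p = 0.504) was not called.

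Genes of mitosis were low in all libraries, and 3 of the 5 tested rose, beside 20.8% of all tested genes. Mki67 and Top2a reached the filter's level of 0.437 CPM in 4 of 5 WT libraries and Cdc20 in 3. These genes thus needed TfamAKO libraries to pass the filter. Aurka, which reached that level in all 5 WT libraries, was not called. Mki67, which encodes the proliferation marker Ki-67, was at 2.45, 1.48, 0.649, 1.55 and 1.87 CPM in TfamAKO 1 to 5, against 0.615, 0.503, 0.832, 0.631 and 0.307 CPM in WT 1 to 5. TfamAKO 3 lay within the WT range and the 4 others above it. The gene was 2.79-fold higher, with a log2 fold change of 1.48 ± 0.36 (SE; edgeR adjusted p = 0.00669), and without WT 3, 4 and 5 it was 1.55 ± 0.52 (SE; edgeR adjusted p = 0.0741). Top2a, the topoisomerase that untangles replicated chromosomes, was at 3.05, 2.48, 1.20, 2.57 and 2.11 CPM in TfamAKO 1 to 5, against 0.676, 0.587, 0.572, 0.394 and 0.998 CPM in WT 1 to 5. The groups did not overlap, and the gene was 3.51-fold higher, with a log2 fold change of 1.81 ± 0.30 (SE; edgeR adjusted p = 0.000782). Cdc20, an activator of the anaphase-promoting complex, was at 1.05, 1.86, 1.75, 1.51 and 1.76 CPM in TfamAKO 1 to 5, against 0.615, 0.419, 0.208, 0.907 and 0.768 CPM in WT 1 to 5. It was 2.67-fold higher with no overlap, with a log2 fold change of 1.42 ± 0.33 (SE; edgeR adjusted p = 0.00562).

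The remaining genes of mitosis were not called. Bub1, a kinase of the spindle checkpoint, had 8, 3, 4, 4 and 6 counts in TfamAKO 1 to 5, against 1, 1, 2, 1 and 4 counts in WT 1 to 5 and was not tested. Without a filter its log2 fold change was 1.36 ± 0.55 (SE; edgeR adjusted p = 0.0813). Aurka, the kinase of the spindle poles, was at 1.80, 1.19, 1.75, 1.65 and 1.30 CPM in TfamAKO 1 to 5, against 1.05, 1.09, 1.30, 1.18 and 1.23 CPM in WT 1 to 5. Its groups overlapped, and the log2 fold change of 0.39 ± 0.19 (SE; edgeR adjusted p = 0.133) was not called. Birc5 (survivin), a subunit of the chromosomal passenger complex, was at 0.150 to 0.849 CPM in TfamAKO and 0.210 to 0.861 CPM in WT libraries, with a log2 fold change of 0.18 ± 0.47 (SE; edgeR adjusted p = 0.787).

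Markers of cell types that divide in the adult hippocampus did not all move with these genes. Of 6 markers of neural progenitors and neuroblasts (Dcx, Sox11, Neurod1, Eomes, Igfbpl1 and Calb2) 1 was higher and 1 lower, with a median log2 fold change of -0.38. They summed to 107 CPM in TfamAKO 1 and to 54.0 to 68.5 CPM in the other TfamAKO libraries, against 79.7 to 100.5 CPM in WT libraries. So 4 of 5 TfamAKO sums lay below the WT range and 1 above it. Calb2 was the largest part of the sum in every WT library, at 34.1 to 49.4 CPM, against 10.4 to 49.9 CPM in TfamAKO. It was not called (edgeR adjusted p = 0.0798), and the sum does not stand for all 6 markers. Nor does the sum measure the number of progenitors or neuroblasts. Igfbpl1 was higher (1.82, adjusted p = 0.00213) and Neurod1 lower (-0.59, adjusted p = 0.0251) on the log2 scale of edgeR. Dcx, the neuroblast marker, was at 9.12 to 16.5 CPM in TfamAKO and 9.58 to 15.5 CPM in WT libraries and was not called. The Dcx levels of the groups overlapped. Of 6 markers of oligodendrocyte precursors 1 was higher (Sox10, 0.67, adjusted p = 0.000126) and 1 lower (Olig1, -0.33, adjusted p = 0.0486), with a sum of 363 to 478 CPM in TfamAKO and 354 to 504 CPM in WT. The other 4 were not called, among them Pdgfra (0.22, edgeR adjusted p = 0.247) and Cspg4 (0.36, edgeR adjusted p = 0.0601). TfamAKO 1 had the highest sum of its group, and its Gpr17 was at 109 CPM, against 18.5 to 38.8 CPM in the other TfamAKO libraries. Of 4 oligodendrocyte markers 1 was higher and 0 lower, of 5 ependymal markers 1 was higher and 1 lower, and of 4 erythrocyte markers in the table none was called. The microglia, astrocyte and endothelial sums were given above with the D-type cyclins. Of the T cell list 3 genes were in the table and none was tested, with a sum of 0.300 to 1.55 CPM in TfamAKO and 0.419 to 0.537 CPM in WT. Of the monocyte and neutrophil list 1 gene of 5, Ly6c2, was tested, and it was higher (1.34, adjusted p = 0.0235); the list summed to 0.699 to 2.50 CPM in TfamAKO and 0.545 to 1.30 CPM in WT. Which cells hold the mitotic transcripts was not tested.

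The called genes did not share 1 order of the TfamAKO mice. Over the 15 called genes TfamAKO 1 was the lowest of its group for 7 and the highest for 4. The genes for which it was low included Ccnd1, Ccnd2, Ccnd3 and Cdk2, while Mki67 and Top2a were at their highest in it. TfamAKO 4 was the highest for 5 and the lowest for 0, and TfamAKO 5 was the highest for 1 and the lowest for 5. This is a description of 5 mice with no test.

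**Figure D5:**
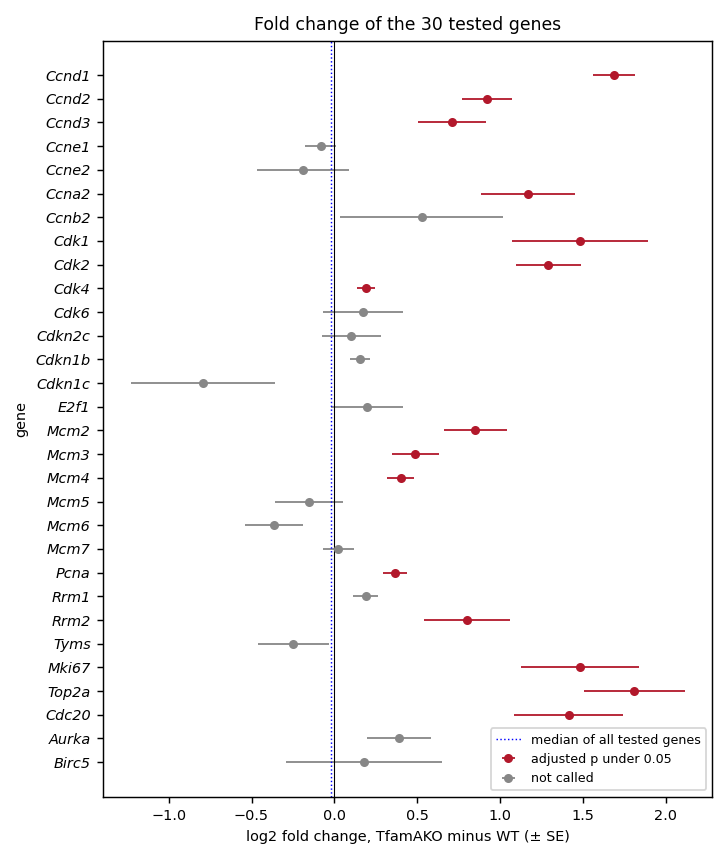
Log2 fold change (TfamAKO minus WT) of the 30 tested genes, with SE as bars, ordered by role; red points have an adjusted p under 0.05, grey points do not, and the dotted line is the median of all tested genes (-0.02). The 15 red points are all right of 0, from Cdk4 at 0.19 to Top2a at 1.81.

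Other genes of the cell cycle, in 4 lists of 135 genes that share none with the 32, had 31 higher and 4 lower of 115 tested, beside 20.8% higher and 16.6% lower over all genes. In the list of replication and G1/S genes 13 of 51 tested were higher and 3 lower, with a median log2 fold change of 0.12. Of the 44 that reached the filter's level in all WT libraries 10 were higher and 3 lower, with a median of 0.06. The risers with the smallest p were Cdt1, which loads the helicase (1.43, adjusted p = 0.00249), Mcm8, a helicase of DNA repair (0.61, adjusted p = 0.00591), the transcription factor E2f3 (0.25, adjusted p = 0.0122) and Rpa3, a subunit of the single-strand binding protein (0.57, adjusted p = 0.0123). The genes that fell were Dut, the dUTPase (-0.24, adjusted p = 0.0138), Cdc7, the kinase that fires origins (-0.77, adjusted p = 0.0219), and Rfc2, of the clamp loader (-0.20, adjusted p = 0.0403).

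In the list of G2 and mitosis genes 10 of 40 tested were higher and 0 lower, with a median log2 fold change of 0.34. Of the 40, 28 reached the filter's level of 0.437 CPM in all 5 WT libraries, and 5 of these were higher, with a median of 0.23. Of the 12 others, which needed TfamAKO libraries to pass the filter, 5 were higher. Over all tested genes 20.8% were called higher and 16.6% lower. The 10 of 40 in the whole list and the 5 of 28 lie near the share of all genes called higher. The genes of the whole list with the smallest p were Smc4 of condensin (0.51, adjusted p = 0.00105), the checkpoint kinase Bub1b (1.19, adjusted p = 0.00110), Spc25 of the kinetochore (2.13, adjusted p = 0.00187) and Tacc3 of the spindle (0.64, adjusted p = 0.00283). Spc25 was at 1.45, 2.01, 1.55, 1.02 and 0.846 CPM in TfamAKO 1 to 5, against 0.184, 0.335, 0.520, 0.0788 and 0.422 CPM in WT 1 to 5, so its groups did not overlap, but only 1 of its 5 WT libraries reached the filter's level, so it entered the test through TfamAKO libraries. Without TfamAKO 4 and 5 the 4 lists together had 19 higher genes, beside 30.2% of all genes called in either direction. Without WT 3, 4 and 5 they had 12, beside 16.5% of all genes. With the choroid plexus score as a covariate they had 15, beside 25.6% of all genes. With all libraries they had 31 higher of 115 tested, beside 20.8% of all genes called higher. The shares given for the other fits cover both directions, so they do not match these counts of higher genes.

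Some genes that restrain the cycle rose in TfamAKO hippocampus. In the list of inhibitors and pocket proteins 4 of 13 tested were higher, 0 lower and 9 not called, with a median log2 fold change of 0.08. Over all tested genes 20.8% were higher and 16.6% lower. Cdkn1a (p21), an inhibitor of cyclin-dependent kinases that also binds PCNA, was at 34.8, 246, 203, 216 and 189.6 CPM in TfamAKO 1 to 5, against 21.1, 26.8, 34.4, 24.2 and 30.0 CPM in WT 1 to 5. TfamAKO 1 was barely above the highest WT library, and the 4 others were far above it. The gene was 6.51-fold higher, with a log2 fold change of 2.70 ± 0.40 (SE; edgeR adjusted p = 0.000316). Rb1, the retinoblastoma protein that holds E2F factors (0.89, adjusted p = 3.79e-05), its relative Rbl1 (0.89, adjusted p = 0.00823) and the chromatin factor Rbbp4 (0.34, adjusted p = 0.00130) were the other 3. In the list of growth arrest and quiescence 4 of 11 were higher, 1 lower and 6 not called, with a median log2 fold change of 0.27, beside the same shares of all genes. Gadd45a, a stress gene known to bind PCNA and to be induced by DNA damage, was at 40.9, 66.3, 68.3, 64.1 and 45.7 CPM in TfamAKO 1 to 5, against 5.04, 7.42, 4.99, 5.83 and 5.76 CPM in WT 1 to 5. It was 9.76-fold higher, with no overlap and a log2 fold change of 3.29 ± 0.17 (SE; edgeR adjusted p = 1.61e-07). Ccng1, a cyclin known as a p53 target (1.39, adjusted p = 7.76e-06), Gadd45b (0.64, adjusted p = 0.0177) and Plk3 (0.38, adjusted p = 0.0498) also rose, and Ccng2 fell (-0.43, adjusted p = 0.0167).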

How the data were processed

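Hippocampal RNA was column-purified and made into stranded mRNA libraries, per the labels' protocols. The deposited estimated counts were whole numbers, so rounding changed none. The submitters' processing notes name Salmon and DESeq2 1.26.0, with no genome build stated there. A second deposited table, treated as a signal because its normalization is not stated, served as an alternative only. The 24 rows whose names had become dates were tested but are left unnamed. Counts were tested with edgeR 4.0.16 in R 4.3.3 (filterByExpr with a minimum count of 10, TMM, two-sided quasi-likelihood F test, genotype as the only term, Benjamini-Hochberg threshold 0.05 over 16180 genes). SE is the absolute log2 fold change over the square root of F. Alternatives used DESeq2 1.42.0, limma 3.58.1 on voom weights or on the log2 of the deposited normalized signal plus 1 or 0.5, other scalings and filters, a replicate block, a choroid plexus covariate (mean log2 CPM of the markers, prior count 2) and sets of libraries. Labels do not say whether mice were littermates, and p-values measure the spread between these mice. Counts are of reads, not molecules, so counting error is a lower limit of the error of low genes. Lengths and promoters came from GENCODE M21 and RefSeq. The 32 genes and all lists were chosen with earlier results of these data known. Named are all 32 genes, Tfam, markers by list, and up to 4 genes per direction with the smallest p of each other list; any other gene was chosen after its values were seen. The progenitor and neuroblast list is given over 6 markers, and 1 further marker is not reported here.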

Additional observations from a re-analysis of the deposited data

Results flagged for a closer look

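In each group of 5 libraries the highest or lowest value was set against its neighbours by Dixon's ratio, with a critical value of 0.71. Of 64 groups (32 genes in TfamAKO and in WT), 10 had a library past it, 5 in TfamAKO and 5 in WT, and chance flags about 1 in 20 groups. TfamAKO 1 was the library in 4 of the 10. It was low for Cdk2 at 3.50 CPM, while the other TfamAKO libraries were at 6.09 to 6.54. It was high for Mcm6 at 16.9 CPM (others 7.86 to 10.3), for Cdk4 at 40.3 CPM (others 37.6 to 38.3) and for Bub1 at 0.399 CPM (others 0.141 to 0.211). TfamAKO 2 was high for Cdkn1c at 12.1 CPM (others 7.54 to 8.84). In WT, WT 1 was high for Cdk6 at 3.69 CPM (others 2.01 to 2.43) and low for Ccnb1 at 0.123 CPM (others 0.230 to 0.260). WT 2 was low for Ccnd2 at 52.0 CPM (others 79.0 to 88.8). WT 5 was low for Ccnb2 at 0.154 CPM (others 0.419 to 0.520) and for Cdkn2c at 2.11 CPM (others 2.68 to 2.85). Values of Bub1, Ccnb1 and Ccnb2 rest on few counts.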

How the results depend on the processing

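Of 356 values recomputed under 12 alternatives other than leaving out a single library, 318 kept their direction and their side of the threshold, 23 lost the call, 3 gained one and 12 changed sign. Of 297 values with single libraries left out, 283 kept both, 4 lost the call, 4 gained one and 6 changed sign. With single libraries left out, 14 to 17 genes of the set were higher and 0 to 1 lower (Cdkn1c without WT 1, Mcm6 without TfamAKO 1), and 2 to 7 genes of the 4 other lists were lower (2 without TfamAKO 2, 7 without TfamAKO 1, 4 with all libraries). The shares of all genes called in these fits and with the replicate block are not given, so these counts have no background beside them. With single libraries left out the log2 fold change ran from -0.029 to 0.073 for Mcm7, from -0.033 to 0.449 for Birc5, from -0.029 to 0.337 for Cdk6 and from -0.075 to 0.331 for E2f1, none of them called. Limma-voom called 1 gene of the set lower, Mcm6. Without WT 3, 4 and 5, 2002 of all genes were higher and 750 lower, 8 genes of the set were higher, and 12 genes of the other lists were higher and 0 lower; fewer WT mice entered this fit. With the choroid plexus covariate 25.6% of all genes were called, 1705 of them lower, and 15 genes of the other lists were higher and 1 lower. Without TfamAKO 4 and 5, 30.2% of all genes were called in either direction, and 19 genes of the other lists were higher. The cause of these changes was not tested. Signs changed for Mcm7 under upper-quartile scaling (-0.0065), and for Birc5 on the normalized values (-0.034 and -0.042 at pseudocounts of 1 and 0.5) and with the covariate (-0.038). The covariate gave -0.083 for Cdk6, -0.015 for Cdkn2c and 0.86 for Cdkn1c. Without WT 3, 4 and 5, Cdk6 was at -0.067, Ccne2 at 0.032 and Cdkn1c at 0.91, and without TfamAKO 4 and 5, Cdk6 was at -0.15 and E2f1 at -0.10. Cdkn1c was the one gene among these that was called after its sign changed. The replicate block called 14 genes of the set higher, and of the set's calls it changed that of Rrm2 (adjusted p = 0.0726). The deviations of same-numbered mice from their group means correlated at -0.142 to 0.0691. Other differences between libraries enter these correlations, so they cannot show whether equal numbers stand for a shared litter or batch. Genes under about 1 CPM, such as Cdk1, Ccnb1, Ccnb2, Bub1 and Birc5, are limited by depth.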
